A study of Rattus norvegicus with 12 samples.

Results

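Carboxylesterases, epoxide hydrolases and detoxifying oxidoreductases are enzymes that hydrolyse, oxidize or reduce drugs, toxins and reactive metabolites, and 9 of their genes were examined here. The members are Ces1c, Ces1d, Ces2c, Ephx1, Ephx2, Aox1, Aldh1a1, Fmo1 and Akr7a3. A member was every probe set whose platform annotation names that gene and no other, which gave 1 probe set per gene and 9 of the 15923 probe sets of the array. The array covered 10411 genes by such a single symbol.

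RNA was measured on Affymetrix rat arrays after a thermal injury, and each sample sets an injured against a sham preparation. There were 3 samples on each of days 2, 4 and 7, which are the 9 arrays used. The labels give no strain, sex, age, tissue, burn size or number of animals, and they do not say whether samples came from separate rats. The p-values therefore measure only the spread between samples, which may be technical. All values are log2 ratios centred on the median of their array, so that 0 is the median of all probe sets. No label says which preparation is the numerator. Sham is listed as channel 1 and injury as channel 2, which makes injury over sham likely, and the direction of every value depends on that reading. Day 1 was left out, because the whole-number signals recovered from its ratios had a rank correlation between -0.0041 and 0.0186 with those of the other arrays under the same identifier. Among the 9 arrays that correlation was between 0.663 and 0.716.

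These enzymes carry out much of the metabolism of foreign compounds in the liver. Carboxylesterases and epoxide hydrolases add water across an ester bond or an epoxide ring, while flavin monooxygenases, aldehyde oxidase, aldehyde dehydrogenases and aldo-keto reductases oxidize or reduce amines, sulphides and aldehydes. Many of them also act on the body's own molecules, among them stored lipid, fatty acid epoxides and retinoids. The labels name no tissue, but the defining markers of hepatocytes were bright. Each of the 12 hepatocyte markers, such as Alb and Apoa1, had signals above the search limit of 20000 on 5 or more of the 9 arrays. This held for 0 of 14 exocrine pancreas, 0 of 6 kidney tubule, 0 of 6 skin keratinocyte and 1 of 7 skeletal muscle markers. In RNA from a whole tissue, fewer cells of a type and less RNA per cell cannot be told apart.

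Promoter windows from RefSeq (build GRCr8, 250 bases before to 50 after an annotated start of a gene) were matched for 8 of the 9 genes, in 9 windows. Ephx2 was not matched. The windows of Ces1d and Ces1c are shown because the genes are neighbours on chromosome 19, with 14344 bases between the end of Ces1d and the start of Ces1c, and are compared below. That of Akr7a3 is shown because it had the smallest p of the 9 genes, and the downstream window of Ephx1 because it is one of 2 starts of that gene. Positions of genes below are of the same build. All are written 5′ to 3′ on the gene's strand. Capitals mark the motifs searched on both strands, which were the box TATAAA, the box CCAAT, the GC box GGGCGG, the xenobiotic response element core GCGTG, the antioxidant response element core TGACNNNGC, the nuclear receptor half-site AGGTCA, the HNF1 half-site GTTAAT and the C/EBP palindrome TTGCGCAA.
Ces1d, chr19:30046244-30046543, plus strand: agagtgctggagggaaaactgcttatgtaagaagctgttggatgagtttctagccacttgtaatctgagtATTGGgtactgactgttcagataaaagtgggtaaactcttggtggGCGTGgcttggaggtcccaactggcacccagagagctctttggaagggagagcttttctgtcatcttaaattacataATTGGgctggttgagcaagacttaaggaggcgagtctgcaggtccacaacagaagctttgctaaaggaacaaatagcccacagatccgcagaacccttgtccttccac
Ces1c, chr19:30099197-30099496, plus strand: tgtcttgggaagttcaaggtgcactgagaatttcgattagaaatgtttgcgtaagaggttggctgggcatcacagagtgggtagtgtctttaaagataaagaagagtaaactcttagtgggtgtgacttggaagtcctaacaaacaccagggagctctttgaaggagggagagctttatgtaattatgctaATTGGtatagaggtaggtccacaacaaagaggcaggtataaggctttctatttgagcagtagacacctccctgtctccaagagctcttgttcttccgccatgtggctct
Akr7a3, chr5:156876471-156876770, plus strand: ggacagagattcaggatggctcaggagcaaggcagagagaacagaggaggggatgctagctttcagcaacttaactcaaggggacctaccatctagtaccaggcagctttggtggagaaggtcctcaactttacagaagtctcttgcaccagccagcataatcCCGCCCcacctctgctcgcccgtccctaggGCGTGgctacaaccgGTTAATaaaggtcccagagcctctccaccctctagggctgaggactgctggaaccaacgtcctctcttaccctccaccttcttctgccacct
Ephx1, chr13:95263068-95263367, minus strand: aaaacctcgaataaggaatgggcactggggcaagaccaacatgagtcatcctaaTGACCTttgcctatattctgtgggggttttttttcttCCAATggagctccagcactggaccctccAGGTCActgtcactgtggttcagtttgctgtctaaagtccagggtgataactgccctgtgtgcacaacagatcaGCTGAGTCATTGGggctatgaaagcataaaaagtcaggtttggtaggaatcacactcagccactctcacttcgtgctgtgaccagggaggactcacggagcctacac

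The Ces1d and Ces1c windows were identical at 183 of 325 aligned columns (56.3%), against 44.2% to 50.6% for the 35 other pairs of windows. Both carried CCAAT on the opposite strand at nearly the same place in the window. It lay at -58 in Ces1d and -59 in Ces1c from the start that each window is built on. For Ces1c that start lies downstream of the gene start given below (30099383), while for Ces1d the 2 agree. Counted from the gene start, the Ces1c match would not lie at -59. GCGTG stood in the Ces1d and Akr7a3 windows, 2 of the 9, and in 29.7% of the 33469 windows of this length. The GTTAAT of Akr7a3 lay at -42 from the start, and 7.45% of all windows hold it. The downstream Ephx1 window held AGGTCA on both strands and the antioxidant core on the opposite strand, where that core overlaps a CCAAT match. AGGTCA is in 16.2% of all windows and the antioxidant core in 12.1%. CCAAT was in 6 of the 9 windows (37.5% of all), GGGCGG in 3 (33.1% of all), and TATAAA (14.2% of all) and TTGCGCAA (0.17% of all) in none. These are matches of letters and show no binding.

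Over days 2, 4 and 7 together, 7 of the 9 genes had a mean below sham, as did 49.5% of all genes, and 2 had a mean above it. The lowest were the flavin monooxygenase Fmo1 (61.9% of sham), the carboxylesterase Ces1d (62.0%), the aldehyde oxidase Aox1 (66.3%) and the aldehyde reductase Akr7a3 (67.0%). If the ratio runs the other way, these 4 were instead higher after injury, by 1.62, 1.61, 1.51 and 1.49-fold. The microsomal epoxide hydrolase Ephx1 and the plasma esterase Ces1c were nearer to sham, at 77.8% and 80.1%. Ces2c, at 126%, and Ephx2, at 112%, had means above sham. The median of the 9 genes was -0.36 on the log2 scale, against 0.00 for all genes.

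By the test across all genes (limma on the 9 arrays, Benjamini-Hochberg adjusted p under 0.05), 0 of the 9 genes passed for the mean of the 3 days, against 0.0384% of all genes, and 0 passed on any single day. At an unadjusted p under 0.05, 6 of the 9 were lower, against 4.34% of all genes, and 0 were higher, against 4.64%. These 6 were Akr7a3, Fmo1, Ces1d, Ces1c, Ephx1 and Aox1. A second limma fit lets the prior for the spread follow the brightness of the probe set and is called the variance trend fit. It called 3 of the 9 genes for the mean of the 3 days, against 0.327% of all genes: Akr7a3, Fmo1 and Ces1d fell. These 3 had signals above the search limit of 20000 on 6, 6 and 8 of the 9 arrays. Ces1c, Ephx1 and Aox1 had them on 7, 8 and 9. The brightness of these 6 genes in that fit is therefore the limit itself and not a measured value. Ces2c and Ephx2 were above the limit on 0 arrays and Aldh1a1 on 3. The 9 genes were chosen with earlier results of these data known, so their counts are a description and not independent evidence.

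**Figure D1:**
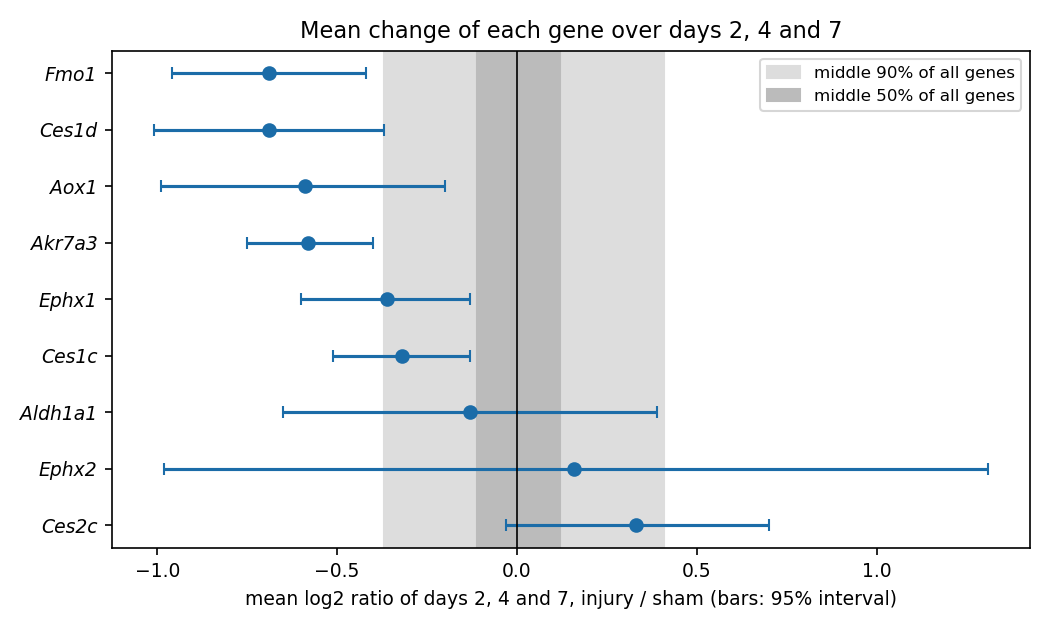
Mean log2 ratio of injury to sham over days 2, 4 and 7 for each of the 9 genes, with the 95% interval of the limma fit, over grey bands that hold the middle 50% and 90% of all genes. Fmo1, Ces1d, Aox1 and Akr7a3 lie below the band of the middle 90%, which spans -0.37 to 0.41, while the interval of Ephx2 runs from -0.98 to 1.31.

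Akr7a3 (gene ID 26760, chr5:156876721-156884599) encodes an aldo-keto reductase that reduces reactive dialdehydes, known for its action on the dialdehyde of aflatoxin. Against sham, the log2 ratio of Akr7a3 stood at -0.64, -0.30 and -0.40 on day 2 (samples 1, 2 and 3), -0.60, -0.34 and -0.28 on day 4, and -0.70, -0.99 and -0.95 on day 7. All 9 arrays were below sham, and each array of day 7 was lower than every array of days 2 and 4. Only 0.547% of all genes were below 0 in 9 of 9 arrays, and 2 of the 9 genes here, Akr7a3 and Fmo1, were among them. Below 0 in 8 or 9 of 9 arrays were 5 of the 9 genes, against 3.07% of all genes, the others being Ces1c, Ephx1 and Aox1. The SD of Akr7a3 within days, 0.17, lay at the 7.6 percentile of all genes. The mean over the 3 days was -0.58 (SE 0.08, 95% interval -0.75 to -0.40, limma adjusted p = 0.0935), the 6th smallest p of the 10411 genes. The variance trend fit called it (adjusted p = 0.00519), and called it again in each of the 9 fits that left out 1 array (adjusted p between 0.0132 and 0.0291).

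By day, Akr7a3 stood at -0.44 ± 0.17 on day 2, -0.41 ± 0.17 on day 4 and -0.88 ± 0.16 on day 7 (SD, n = 3 each), or 73.5%, 75.4% and 54.4% of sham. The day 7 mean passed in the variance trend fit (adjusted p = 0.0185), where 1 of the 9 genes and 0.048% of all genes did, and missed in the other fit (limma adjusted p = 0.144). That call ended without sample 2 of day 4 (adjusted p = 0.0543) or without sample 1 (0.0994), 2 (0.0614) or 3 (0.178) of day 7. Day 7 minus day 2 was -0.43 (SE 0.19, limma adjusted p = 0.665) and day 7 minus day 4 was -0.47 (SE 0.19, adjusted p = 0.384). It was the 1 gene of the 9 lower at an unadjusted p under 0.05 in either difference, against 3.66% and 6.43% of all genes. The ranges of days 2 and 7 do not overlap in 12.6% of all genes, and those of days 4 and 7 in 19.7%.

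Fmo1 (gene ID 25256, chr13:77715405-77747666) encodes a flavin monooxygenase, which adds oxygen to the nitrogen or sulphur of many drugs. The arrays gave Fmo1 log2 ratios of -0.84, -0.76 and -0.86 on day 2 (samples 1, 2 and 3), -0.38, -0.60 and -0.27 on day 4, and -1.25, -0.17 and -1.10 on day 7. All 9 arrays were below sham, and sample 2 of day 7 was nearest to it. The day 2 arrays were close together (-0.82 ± 0.05, SD, n = 3, 56.7% of sham) and all lay below those of day 4 (-0.42 ± 0.17), which is so in either direction for 14.4% of all genes. Day 7 had a similar mean with a wide spread (-0.84 ± 0.59, 55.8% of sham). In sample 3 of day 7 the deposited ratio is that of the whole numbers 321 for injury and 617 for sham, in lowest terms.

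The mean of Fmo1 over the 3 days was -0.69 (SE 0.12, 95% interval -0.96 to -0.42, limma adjusted p = 0.133). The variance trend fit called it (adjusted p = 0.0166). The call ended without sample 1 of day 2 (adjusted p = 0.0569), sample 2 of day 4 (0.0723), or sample 1 (0.0512) or 3 (0.0624) of day 7, while the log2 mean stayed between -0.81 and -0.62 in all 9 such fits. Without sample 2 of day 7, that fit also called Fmo1 on day 2 (0.0295) and on day 7 (0.0167). The annotation matched 0 of the 4 other Fmo genes listed, so Fmo1 cannot be set against its family here.

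**Figure D2:**
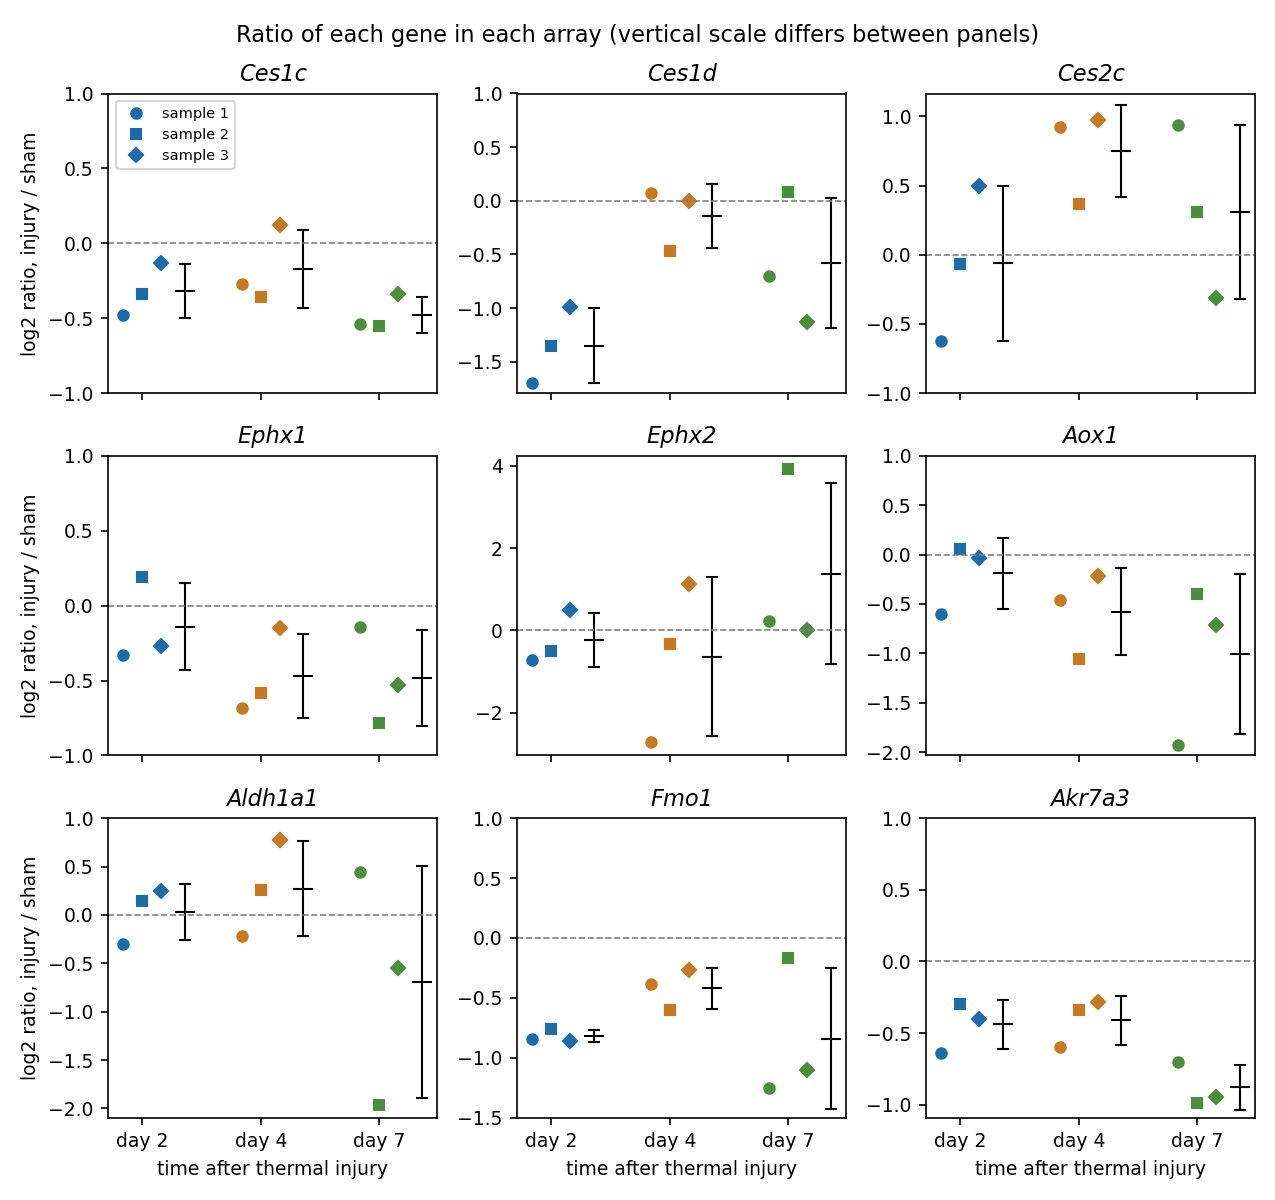
Log2 ratio of injury to sham of each of the 9 genes in each array, by day (circle, square and diamond for samples 1, 2 and 3), with the mean and SD of the 3 samples as a bar to the right. Akr7a3 and Fmo1 are below 0 in 9 of 9 arrays, Ces1d is lowest on day 2, and the Ephx2 panel has the widest scale, from -2.71 to 3.91.

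Ces1d (gene ID 113902, chr19:30046494-30085039) encodes a microsomal carboxylesterase of liver that cleaves ester drugs and acylglycerols. For Ces1d the log2 ratios were -1.70, -1.35 and -0.99 on day 2 (samples 1, 2 and 3), 0.07, -0.47 and 0.00 on day 4, and -0.70, 0.08 and -1.13 on day 7. All arrays of day 2 lay below all arrays of day 4, and day 7 overlapped both. Days 2 and 4 do not overlap, in either direction, in 14.4% of all genes. At day 2 Ces1d stood at 39.3% of sham (-1.35 ± 0.35, SD, n = 3), the lowest day mean among the 9 genes (2.54-fold, and the highest, if the ratio runs the other way). In limma's fit its adjusted p was 0.226 at day 2, where 0 of 10411 genes passed and 809 had an unadjusted p under 0.05. The variance trend fit called it (adjusted p = 0.0306), the 1 of the 9 genes called at day 2 against 0.144% of all genes.

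That day 2 call of Ces1d held in 3 of the 9 fits that left out an array, namely those without sample 2 of day 4 (adjusted p = 0.0422) and without sample 2 (0.0171) or 3 (0.0262) of day 7. It ended in the other 6, with adjusted p between 0.0526 and 0.272. Day 4 minus day 2 was 1.21 (SE 0.34, 95% interval 0.43 to 1.99, limma adjusted p = 0.536). Ces1d was the 1 of the 9 genes higher at an unadjusted p under 0.05, against 3.64% of all genes. Over the 3 days the mean was -0.69 (SE 0.14, 95% interval -1.01 to -0.37, limma adjusted p = 0.211). The variance trend fit called it (adjusted p = 0.0361), and the call held without sample 3 of day 2 (0.0353) or sample 2 of day 7 (0.0167). It ended without any other single array (0.0559 to 0.144).

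Ces1c (gene ID 24346, chr19:30099383-30128531), the neighbour of Ces1d, encodes an esterase that rodents secrete into plasma. Ces1c had log2 ratios of -0.48, -0.34 and -0.13 on day 2, -0.27, -0.36 and 0.12 on day 4, and -0.54, -0.55 and -0.34 on day 7, in samples 1 to 3. It was below sham in 8 of 9 arrays, with sample 3 of day 4 the exception, and its arrays spread little (SD within days 0.19). The day means were -0.32 ± 0.18, -0.17 ± 0.26 and -0.48 ± 0.12 (SD, n = 3). Over the 3 days it averaged -0.32 (SE 0.08, 95% interval -0.51 to -0.13, limma adjusted p = 0.346, or 0.109 with the variance trend). The 2 neighbours were thus both low on day 2, Ces1d by the larger amount, while on day 7 Ces1c was low in all 3 arrays and Ces1d in 2. Of all genes, 13.1% were below 0 in all 3 arrays of day 2 and 18% in those of day 7. Cross-hybridization between genes as related as these 2 neighbours was not tested.

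Ces2c (gene ID 171118, chr1:270377201-270384768) encodes a carboxylesterase of the second family, which prefers esters with a small acyl group. Ces2c had log2 ratios of -0.62, -0.07 and 0.50 on day 2, 0.92, 0.37 and 0.97 on day 4, and 0.94, 0.31 and -0.31 on day 7, in samples 1 to 3. It was the 1 gene of the 9 above sham in all 3 arrays of day 4, as were 18.3% of all genes. The day 4 mean was 0.75 ± 0.33 (SD, n = 3, 1.69-fold, limma adjusted p = 0.527, 95% interval 0.12 to 1.39). Sample 2 of day 4 has the whole numbers 2523 for injury and 1973 for sham. Over the 3 days it averaged 0.33 (SE 0.16, 95% interval -0.03 to 0.70, adjusted p = 0.583), an interval that includes 0, while those of Ces1c and Ces1d lie below it. Of 17 other esterase genes listed, 5 were measured and 0 passed in either limma fit. Bche, a plasma cholinesterase, had 0.25 (SE 0.14) and Pon1, a plasma paraoxonase, 0.07 (SE 0.07) over the 3 days, and the median of the 5 was 0.02.

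Ephx1 (gene ID 25315, chr13:95246079-95275852) encodes microsomal epoxide hydrolase, which opens the epoxides that cytochromes P450 make from aromatic compounds. For Ephx1 the log2 ratios were -0.33, 0.19 and -0.27 on day 2, -0.68, -0.58 and -0.15 on day 4, and -0.14, -0.78 and -0.53 on day 7, in samples 1 to 3. It was below sham in 8 of 9 arrays. It was so in all 3 of day 4, as were 16.2% of all genes, and in all 3 of day 7, as were 18%. The day means were -0.14 ± 0.29, -0.47 ± 0.28 and -0.48 ± 0.32 (SD, n = 3). Over the 3 days it averaged -0.36 (SE 0.10, 95% interval -0.60 to -0.13, limma adjusted p = 0.38, or 0.16 with the variance trend). The array has a single probe set for the gene, so the 2 starts in RefSeq, of which the downstream window is printed above, could not be told apart.

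Ephx2 (gene ID 65030, chr15:44465447-44503157) encodes soluble epoxide hydrolase, which breaks down the epoxides of fatty acids. For Ephx2 the log2 ratios were -0.73, -0.51 and 0.50 on day 2, -2.71, -0.34 and 1.12 on day 4, and 0.22, 3.91 and 0.01 on day 7, in samples 1 to 3. Its SD within days, 1.73, was larger than that of 98% of all genes, and the days overlapped. The value of 3.91, in sample 2 of day 7, is the ratio of the whole numbers 4278 for injury and 271 for sham. The same gene had 3261 and 2753 in sample 1 of that day, and 176 and 273 in sample 2 of day 2, all in lowest terms, so a common factor may have been lost. The mean over the 3 days was 0.16 (SE 0.50, 95% interval -0.98 to 1.31, limma adjusted p = 0.939), and became -0.26 without sample 2 of day 7. Of the 3 other epoxide hydrolase genes listed only Lta4h, which makes leukotrienes, was measured, at 0.13 (SE 0.09, adjusted p = 0.698).

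Aox1 (gene ID 54349, chr9:67073831-67152980) encodes aldehyde oxidase, a molybdenum enzyme that oxidizes aldehydes and nitrogen heterocycles. The arrays gave Aox1 log2 ratios of -0.60, 0.06 and -0.03 on day 2, -0.46, -1.06 and -0.22 on day 4, and -1.93, -0.40 and -0.71 on day 7, in samples 1 to 3. The arrays of days 4 and 7 were all below sham, as were those of 16.2% of all genes on day 4 and 18% on day 7. The Aox1 arrays of day 2 lay on both sides of sham. The day means were -0.19 ± 0.36, -0.58 ± 0.44 and -1.01 ± 0.81 (SD, n = 3), the last 49.5% of sham. At day 7 limma's adjusted p was 0.331, and the mean was -0.56 without sample 1 of that day. Over the 3 days Aox1 averaged -0.59 (SE 0.17, 95% interval -0.99 to -0.20, adjusted p = 0.387, or 0.161 with the variance trend).

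Aldh1a1 (gene ID 24188, chr1:227426939-227579497) encodes retinaldehyde dehydrogenase, which makes retinoic acid and clears other aldehydes. Aldh1a1 had log2 ratios of -0.30, 0.14 and 0.25 on day 2, -0.22, 0.26 and 0.77 on day 4, and 0.44, -1.96 and -0.55 on day 7, in samples 1 to 3. Arrays of each day lay on both sides of sham, and sample 2 of day 7 was far below the rest. The mean over the 3 days was -0.13 (SE 0.23, 95% interval -0.65 to 0.39, limma adjusted p = 0.891), and 0.08 without that sample. That sample also held the highest ratios of Ephx2 and Ces1d (0.08) and the ratio of Fmo1 nearest to 0. The lowest ratios of Akr7a3 (-0.99), Ephx1 (-0.78) and Ces1c (-0.55) were in the same sample.

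The days were also compared across the 9 genes. For a difference among days 2, 4 and 7 (limma F test), 0 of the 9 genes passed, as did 0% of all genes, and 1 (Ces1d) had an unadjusted p under 0.05, against 10% of all genes. In each difference between days 0 of the 9 and 0% of all genes passed. The median of the 9 genes was -0.24 on day 2, -0.41 on day 4 and -0.58 on day 7, against 0.00, 0.01 and -0.01 for all genes. At an unadjusted p under 0.05, 3 of the 9 were lower on day 2 (3.71% of all genes), 2 on day 4 (3.93%), where 1 was higher (4.88%), and 6 on day 7 (5.36%). By array, 5 to 9 of the 9 genes were below 0. The median of all genes lay between -0.03 and 0.03 on each array, so 5 of 9 is near their share. All 9 were below 0 in sample 1 of day 2, and the array median of the 9 genes was highest, at 0.00, in sample 3 of day 4.

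**Figure D3:**
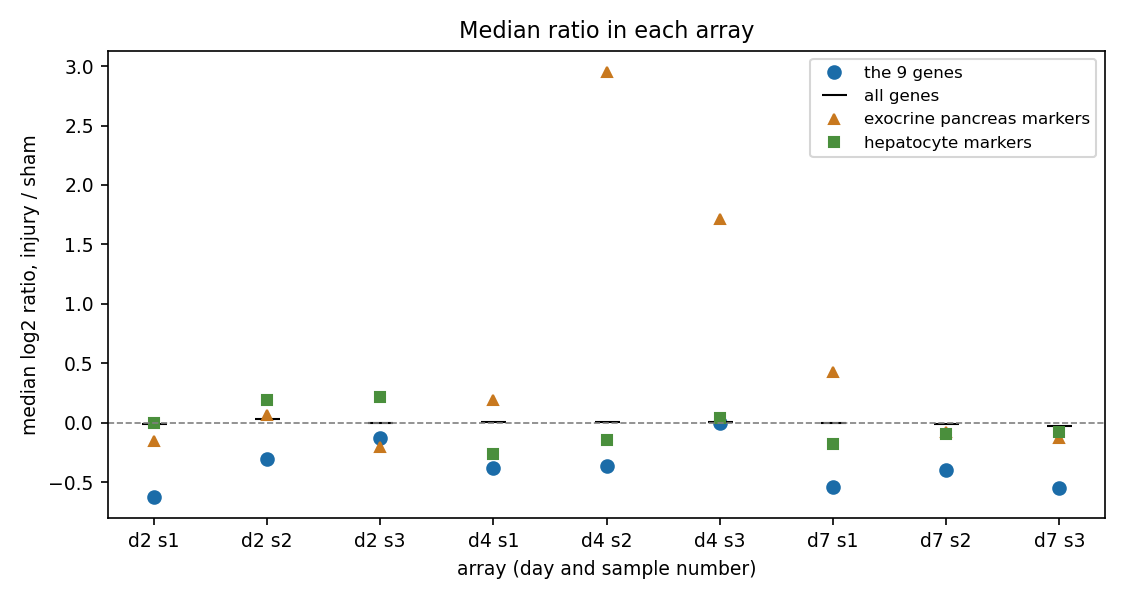
Median log2 ratio of injury to sham in each of the 9 arrays (d for day, s for sample) for the 9 genes, all genes and the markers of hepatocytes and exocrine pancreas. The 9 genes lie between -0.62 and 0.00, hepatocyte markers between -0.26 and 0.22, and exocrine pancreas markers reach 2.95 and 1.71 in samples 2 and 3 of day 4.

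Markers of other cell types were followed beside these values. The 12 hepatocyte markers had array medians between -0.26 and 0.22, those of the 9 macrophage markers lay between -0.28 and 0.52, and those of the 4 red cell markers between -0.37 and 0.83. On day 7, when the median of the 9 genes was lowest, the 5 neutrophil markers had medians of 0.13, 0.98 and 1.40 in samples 1 to 3 and the 5 endothelial markers -0.53, -0.25 and -0.42. The 6 keratinocyte markers reached 1.19 in sample 3 of day 7, and the 4 bile duct markers -1.21 in sample 1 of day 4. The part of these cell types in the values of the 9 genes was not tested. The 14 measured exocrine pancreas markers had medians of 2.95 and 1.71 in samples 2 and 3 of day 4 and between -0.20 and 0.43 elsewhere. None of the 14 was above the search limit on 5 or more arrays. In those 2 arrays the medians of the 9 genes were -0.36 and 0.00, and the part of the pancreas transcripts in the day 4 values was not tested. With day 4 left out, the means of days 2 and 7 were -0.66 for Akr7a3, -0.83 for Fmo1 and -0.97 for Ces1d. The fit without the trend then called 0 of all genes for that mean (limma adjusted p = 0.222 for Akr7a3 and 0.303 for Ces1d). The variance trend fit called all 3 (adjusted p = 0.0263, 0.0496 and 0.0454), and it called 23 of all genes. Its calls of Ces1d on day 2 (0.063) and of Akr7a3 on day 7 (0.106) ended. The refit was chosen after seeing the data, averages other days, and does not test the part of the pancreas transcripts.

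Genes of related families, from lists of known members, were compared by count. Of 12 other aldehyde dehydrogenase and oxidase genes measured, 0 passed in either limma fit for the mean of the 3 days, and 10 were below 0 (median -0.04). Aldh3a1, an aldehyde dehydrogenase that the Ahr receptor can induce, had -0.70 (SE 0.17, adjusted p = 0.336), and Aldh1l1, of folate metabolism, -0.32 (SE 0.08, adjusted p = 0.346), both below 0 in 9 of 9 arrays. The 10 other aldo-keto reductases had a median of 0.00 with 0 calls. Akr7a2, of the same subfamily as Akr7a3, had -0.11 (SE 0.07, adjusted p = 0.663), and Akr1c1 -0.30 (SE 0.24). The 22 quinone, carbonyl and alcohol oxidoreductases had a median of 0.00 with 0 calls, as in Adh5 at 0.14 (SE 0.09) and Nqo2 at 0.11 (SE 0.08).

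Regulators and targets of the same pathways were listed too. Of the 16 measured targets of the oxidant sensor NRF2, 0 passed in either fit and 10 were below 0 (median -0.06). Gclm, a subunit of the enzyme that starts glutathione synthesis, had -0.25 (SE 0.08, limma adjusted p = 0.412), below 0 in 9 of 9 arrays, and Gsta1 had -0.20 (SE 0.08). Of 20 measured regulators, 9 were above and 11 below 0 (median -0.01). At an unadjusted p under 0.05, 3 were higher, against 4.64% of all genes, and 3 lower, against 4.34%. The liver transcription factor Foxa2 had -0.74 (SE 0.15, adjusted p = 0.222) and fell in the variance trend fit (adjusted p = 0.0484). Nr1i3, the receptor CAR that induces many drug-metabolizing genes, had -0.47 (SE 0.11, adjusted p = 0.265, or 0.0944 with the variance trend). The 3 higher ones, named after their values were seen, were the liver factor Hnf4a at 0.40 (SE 0.10), the lipid receptor Ppara at 0.71 (SE 0.18) and the coactivator Ppargc1a at 1.44 (SE 0.46), with limma adjusted p of 0.32, 0.346 and 0.412. Nfe2l2, which encodes NRF2, was the other lower one, at -0.32 (SE 0.09, adjusted p = 0.385). Of 15 retinoid genes 0 passed, with Lrat, which esterifies retinol, at -0.41 (SE 0.09, adjusted p = 0.247) and below 0 in 9 of 9 arrays, and the retinol transporter Stra6 at 0.42 (SE 0.15, adjusted p = 0.467).

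**Figure D4:**
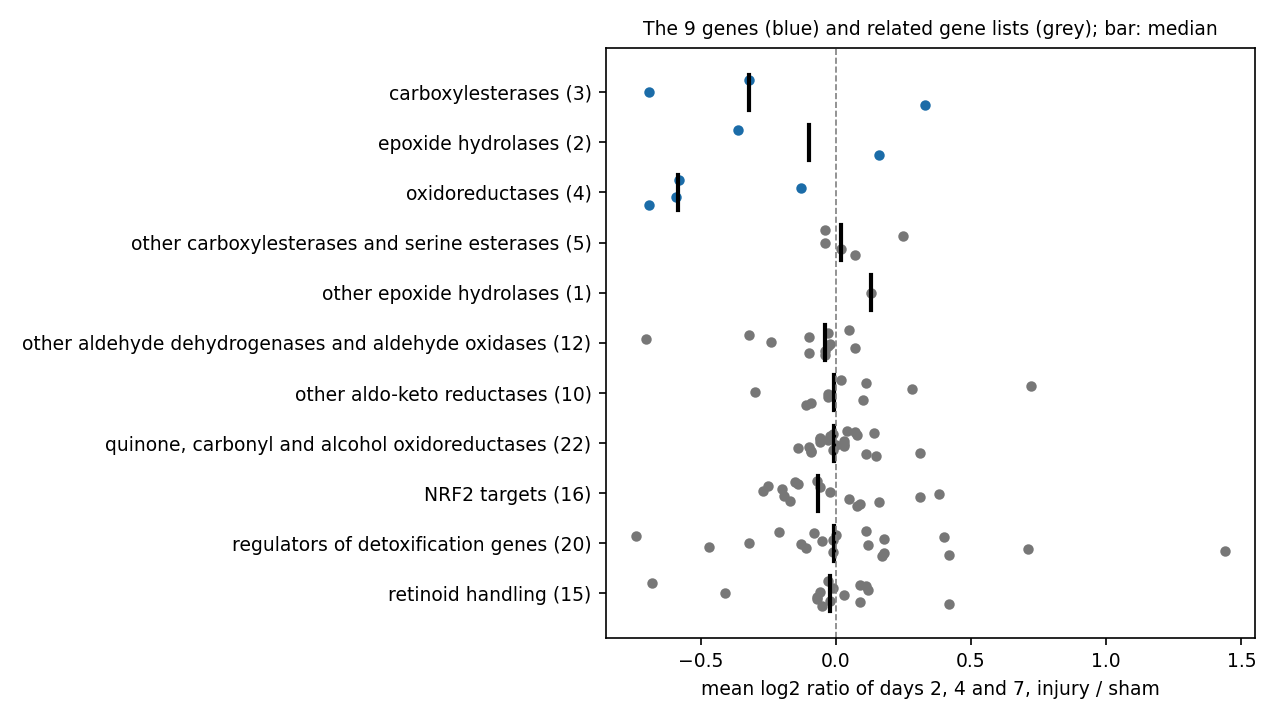
Mean log2 ratio of injury to sham over days 2, 4 and 7, with 1 point per gene, for the 9 genes (blue, by class) and for related lists (grey, number of measured genes in brackets), with the median of each as a black bar. The 3 carboxylesterases, 2 epoxide hydrolases and 4 oxidoreductases examined have medians of -0.32, -0.1 and -0.59. The related lists have medians between -0.06 and 0.13, and 0.13 is the value of a single gene, Lta4h.

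Outside the 9 genes, the genes whose ratios over the 9 arrays were most like the mean of the 9 were Nr1h3, Plin2, Cdc34, Tyk2 and Ube2k. Their Pearson r, used only to rank 5197 of the brighter genes, was 0.903, 0.902, 0.879, 0.879 and 0.872. Ephx2, with an SD of 1.76 over the 9 arrays, weighs most in that mean, and the arrays are shared by all genes.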

How the data were processed

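The authors deposited 1 log2 ratio of array signals per probe set and sample, with no missing value, in 12 columns. How they scaled the arrays, and with which software, is not given in the sources used here. Control probe sets (57) were left out of 15923, and 15866 were tested. Array medians lay between -0.13 and 0.16 on days 2, 4 and 7 and were subtracted. Symbols came from the platform annotation, where 12783 probe sets have 1 symbol, 312 have several and 2771 have no symbol, and probe sets of 1 gene were averaged to 10411 genes. Genomic positions and promoters are those of GRCr8 and were matched by gene ID.

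Each day's mean was fitted to the 9 arrays, leaving 6 residual degrees of freedom, by lmFit and eBayes of limma 3.58.1 (R 4.3.3). P-values were adjusted over all genes by Benjamini-Hochberg, at a threshold of 0.05. Both limma fits were tested on simulated data, with 50 changed genes of each size. Without the trend, a log2 change of 0.5 was recovered in 28% for the mean and 0% to 2% on single days. For a change of 1 it was 68% and 36% to 44%. With the trend, a change of 1 was recovered in 64% and 34% to 42%. Unchanged genes called numbered 5 to 12 per comparison without the trend and 4 to 11 with it. A gene that did not pass may still have changed. Each ratio was searched for its pair of whole numbers (tolerance 1e-09, at most 20000), and the median over arrays of the smaller number, or the limit where none was found, gave a probe set's brightness. With numbers up to 3000, between 66.4% and 69.4% of ratios were recovered, against 0.239% to 0.320% of shifted values. Whole numbers are printed only where their product is at most that of 3000 and 3000. No 2 arrays shared over 0.013% of their ratios, and their pairwise correlations over all probe sets lay between -0.105 and 0.148.

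Same-numbered samples of different days were not paired. The members and gene lists were chosen with earlier results of these data known. By rule, all members are named, together with the genes of each related list called in the fit without the variance trend or else its 2 with the smallest p, the 4 brightest genes of a marker list at most, and the 5 most similar genes. Alternatives covered centring, scaling between arrays, the variance prior, day 1, array weights, the brightest probe set, dim probe sets, the sample number as a block, and each array left out. The variance trend combined with other settings, and the fit without day 4, were chosen after seeing the data.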

Additional observations from a re-analysis of the deposited data

Results flagged for a closer look

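Aldh1a1 had a log2 ratio of -1.96 in sample 2 of day 7, against -0.55 for the next lowest of the 9 arrays. The gap was 0.515 of the whole range, above Dixon's 95% critical value for 9 values. The 9 arrays span 3 days, and chance flags about 1 in 20 such groups. All 9 genes were screened, so a chance flag in at least 1 of them is likelier than 1 in 20. None of the other 8 genes was past this value, with Aox1 (0.435) and Ephx2 (0.422) nearest to it. Without that array the mean of Aldh1a1 over the 3 days was 0.08 in place of -0.13.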

How the results depend on the processing

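The fit without a variance trend called 0 of the 9 genes in each comparison, and 0 member probe sets among all probe sets. For the mean of the 3 days it called 1 (Akr7a3) with all 12 arrays (adjusted p = 0.0398) and 1 (Akr7a3) without the dimmest probe sets (0.0447). With 12 arrays the Akr7a3 mean stayed at -0.58, and day 1 entered only through the estimate of the spread. Day 1 signals were unrelated to those of the other days under the same identifier, so the 12-array call is no support for Akr7a3. With the variance trend the count was 3 for the mean of the 3 days, 1 on day 2 and 1 on day 7, among genes and among probe sets alike. For the variance trend fit, leaving out 1 array gave between 1 and 3 of the 9 genes for the mean, 0 and 2 on day 2, and 0 and 1 on day 7. Over all genes the same fits called 9 to 40 for the mean, 0 to 17 on day 2 and 0 to 12 on day 7. Without day 4 the variance trend fit called 0 of the 9 on day 2 and 0 on day 7, against 9 and 1 of all genes.

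Same-numbered samples had deviations from their day means that correlated between -0.041 and 0.068 over 9 pairs, and 2 of 9 arrays correlated best with their own number. With the sample number as a replicate block, 0 genes of the 9 passed without the trend, and with it 2 for the mean (Akr7a3 and Fmo1), 0 on day 2 and 0 on day 7. With that block and the trend, 23 of all genes passed for the mean, 4 on day 2 and 1 on day 7. Ces1d then had adjusted p = 0.0876 for the mean and 0.0912 on day 2, and Akr7a3 0.0693 on day 7.

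Over all genes, the mean of the 3 days had 4 calls without the variance trend and 34 with it. Without the trend there were 8 with 12 arrays, 8 without dim probe sets and 0 with the block. The same fit gave 0 without day 4 and 0 to 3 with an array left out. On day 2, 0 became 15 with the trend and 3 without dim probe sets. On day 7, 0 became 5 with the trend. On day 4 and in the differences between days, 0 became at most 3 with 1 setting changed. The variance trend combined with another setting gave up to 6 on day 4.

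No called value changed sign. Among uncalled values, leaving out 1 array moved Aldh1a1 between -0.08 and 0.20 on day 2 and between -0.32 and 0.08 for the mean, Aox1 on day 2 between -0.31 and 0.02, and Ces1d on day 4 between -0.24 and 0.03. Ces2c moved between -0.35 and 0.22 on day 2 and between -0.0018 and 0.62 on day 7, and Ephx2 between -1.52 and 0.39 on day 4 and between -0.26 and 0.51 for the mean. Aldh1a1 on day 2 was -0.0027 without centring. Their cause was not tested. Of 691 alternative log2 values of single genes, 673 kept their sign and side of the threshold, 7 became called and 11 changed sign. Many of these log2 values were fixed in advance, so the count is no measure of robustness. The mean of a day does not change with the variance trend or when an array of another day is left out. The fit without the trend called 0 of the 9 genes, so keeping the side of the threshold mostly meant staying uncalled.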
